A study of Schizosaccharomyces pombe with 6 samples.

Results

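The members described here are the 3 wild-type libraries of a series of 6 poly(A)+ RNA libraries from the fission yeast *Schizosaccharomyces pombe*; they were taken by their labels, and the other 3 libraries, of a strain lacking an SPX domain protein, were not used. The wild type was an *h+* strain labelled AGP73, grown vegetatively to logarithmic phase at 30°C in YES, a rich medium of yeast extract and glucose, with 3 replicate cultures. The study's list of the strains it constructed gives them the alleles *leu1-32*, *ura4-D18*, *his3-D1* and 1 of the *ade6* alleles *ade6-m210* and *ade6-m216*; whether the wild type carries each of them is not stated.

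Fission yeast that divides quickly on glucose ferments most of the sugar to ethanol even in air, and it spends much of its transcription on the machinery of protein synthesis. Messenger RNAs for ribosomal proteins, translation factors and glycolytic enzymes are known as the most abundant ones of such cells, whereas genes for mating, meiosis, spore formation and the use of poor carbon or nitrogen sources are kept low until the nutrients run out. Levels are given below as counts per 1000000 counts of the library (CPM), or, where genes are compared with each other, as TPM (transcripts per 1000000), which are counts divided by exon length and scaled to a sum of 1000000 over the protein-coding genes. Each value is a mean ± SD over the 3 libraries, and the spread covers these cultures only.

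The 3 libraries held 15282140, 11539278 and 14560026 counts over 6986 gene IDs, so that 1 count was worth between 0.0654 and 0.0867 CPM. Protein-coding genes took 98.4% ± 0.0506 of the counts, non-coding RNAs 1.51% ± 0.0460, pseudogenes 0.0594%, small nucleolar RNAs 0.0357%, ribosomal RNAs 0.00275% and tRNAs 0.000159%. The low shares of rRNA, tRNA, snRNA and snoRNA are those of RNA selected for poly(A) tails and say nothing of these RNAs in the cell. The Pearson coefficient between libraries, across all IDs, lay between 0.9966 and 0.9976, and the common biological coefficient of variation that edgeR estimates was 0.0458.

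Of these marker genes, 1 had no counts. *ura4* (SPCC330.05c, chromosome III), which encodes orotidine 5'-phosphate decarboxylase of uracil synthesis and is removed in *ura4-D18*, had 0 counts in each of the 3 libraries, although each of its 51-base windows is unique in the reference genome; a count of 0 allows up to 0.196, 0.260 and 0.206 CPM. *his3*, for an aminotransferase of histidine synthesis, kept 134, 117 and 169 counts, or 10.2 ± 1.42 CPM, with a rank of 4653 among 5110 protein-coding genes by TPM. *leu1* and *ade6* were measured at 469 ± 19.6 and 186 ± 7.11 CPM, and neither stood near zero in any library. The mating type could not be read in the same way: the genes of the plus cassette matched no ID of the table, and the 4 IDs of the minus cassettes (*mat1-Mc*, *mat1-Mi*, *mat3-Mc*, *mat3-Mm*) have no unique window and no counts.

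Of 5126 protein-coding IDs, 4920 (96.0%) reached a mean of 1 CPM, 4655 reached 10 CPM, 2111 reached 100 CPM and 174 reached 1000 CPM. The median protein-coding gene stood at 79.0 CPM and 60.5 TPM, with quartiles of 30.2 and 129 TPM. Together 392 IDs held 50% of all counts, and 10 IDs alone took 5.82%. The 56 protein-coding IDs without a single count were mostly unmeasurable: 22 had fewer than 80% unique windows, 11 were mitochondrial genes, and 10 of the other 23 shared at least 50% of their bases with another ID on the same strand. *ura4* was 1 of 5 genes over 500 bases among those 23.

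The gene with the highest level was *fba1* (SPBC19C2.07, chrII:1688321-1689599, plus strand, in build ASM294v3), for fructose-bisphosphate aldolase, at 9179, 8147 and 8477 CPM in the 3 libraries. It held 0.860% of all counts, and its 9199 ± 590 TPM lay above the range of the next gene. That gene was *cpc2*, for the ribosome-bound scaffold protein known as RACK1 in animals, at 6436, 6466 and 6308 TPM. The ribosomal protein gene *rpl8* followed at 5394, 5499 and 5226 TPM and overlapped with the phosphoglycerate mutase gene *gpm1* at 5707, 5061 and 5266 TPM. Below these the order was fine-grained: among the 20 pairs of neighbours from *fba1* down, the ranges of 15 overlapped, and the order was the same in all 3 libraries for only 5.

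Among the 100 protein-coding genes with the highest TPM, 71 encoded cytosolic ribosomal proteins, 7 glycolytic enzymes and 5 translation factors. The rest included both enzymes that turn pyruvate into ethanol (*pdc101*, *adh1*), the Hsp70 chaperones *sks2* and *ssa2*, actin (*act1*), the methionine synthase *met26*, the branched-chain amino acid enzyme *ilv5* and the cell wall protein *ecm33*. Of the 9 that belonged to no list, *ubi1* and *ubi3* encode ubiquitin fused to a ribosomal protein (4821 ± 384 and 4817 ± 86.8 TPM), *btf3* a subunit of the nascent polypeptide-associated complex (3254 ± 172 TPM) and *cpy1* the vacuolar carboxypeptidase Y (2321 ± 116 TPM). By CPM, which does not correct for length, *cpy1* was second at 5868, 5970 and 6387 CPM, and the elongation factor gene *tef3* came next with 5843, 6311 and 5589 CPM. SPAPB24D3.07c, annotated only as a protein specific to this species, stood among them at 3470, 3372 and 3486 TPM, with a rank of 36.

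**Figure D1:**
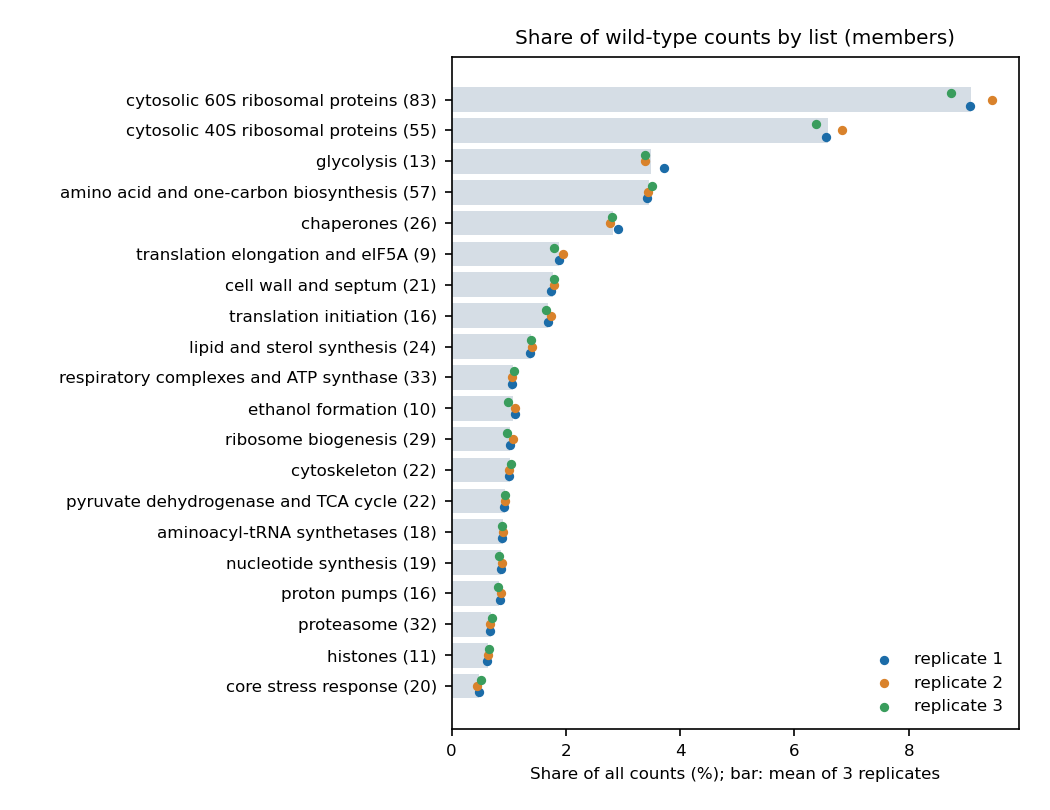
Share of all wild-type counts held by the 20 gene lists with the largest shares. The bars are means of 3 replicates and the points are the replicates; the ribosomal protein lists reach 9.09% and 6.59%, and no other list passes 3.49%.

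Translation was the largest function by counts. The 83 genes for proteins of the large ribosomal subunit held 9.06%, 9.45% and 8.75% of the counts, and the 55 genes for the small subunit held 6.56%, 6.83% and 6.38%. Per length, as a share of TPM, the 2 lists held 18.8% and 13.7%. The median gene of the large subunit stood at 2153 TPM and that of the small subunit at 2481 TPM, against 60.5 TPM for all protein-coding genes. Of the 138 genes, 135 lay in the top decile of protein-coding genes, and 98 of the 138 had their highest CPM in replicate 2, as did 1164 of the 4920 protein-coding genes at 1 CPM or more and 98 of the 174 genes at 1000 CPM or more.

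Most ribosomal proteins of fission yeast are made from more than 1 gene: the 138 genes fell by name into 77 proteins, 21 with 1 gene, 51 with 2 and 5 with 3. The copies were often unequal. Among the 52 families whose genes can be told apart, the highest copy exceeded the lowest by a median of 1.58 times; the ratio was under 1.5 in 22 families and at least 2 in 17, and the order was the same in all 3 libraries in 49. *rpl1603* was the extreme case: it stood at 82.0 ± 2.72 TPM, and *rpl1602*, for the same protein, was 30.2, 31.4 and 30.1 times higher in the 3 libraries. *rpl3401* exceeded *rpl3402* (3309 ± 120 against 395 ± 20.6 TPM), *rpl3001* exceeded *rpl3002* (2370 ± 14.5 against 307 ± 4.78 TPM) and *rpl101* exceeded *rpl102* (3977 ± 196 against 643 ± 21.5 TPM). At the other end, *rps1702* and *rps1701* were at 2481 ± 118 and 2448 ± 47.9 TPM and changed order between libraries.

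Summed over copies, the levels were much more alike than gene by gene. The SD of log2 TPM over single ribosomal protein genes was 0.84, and over the 73 proteins whose genes can be told apart it was 0.41. Part of this fall is built in, because a low copy adds little to a sum led by the highest copy. The summed level was within 2-fold of the median of 4107 TPM for 71 of the 73 proteins. It ran from 1577 TPM for *rps29*, which has a single gene, to 7784 TPM for the pair *rps101* and *rps102*. Proteins with a single gene had a median of 3639 TPM, the single genes of multi-gene proteins 2133 TPM, and the sums of the latter 4489 TPM. Families in which under 80% of the 51-base windows of a gene are unique were left out of these counts, because reads that match both copies equally may be lost.

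**Figure D2:**
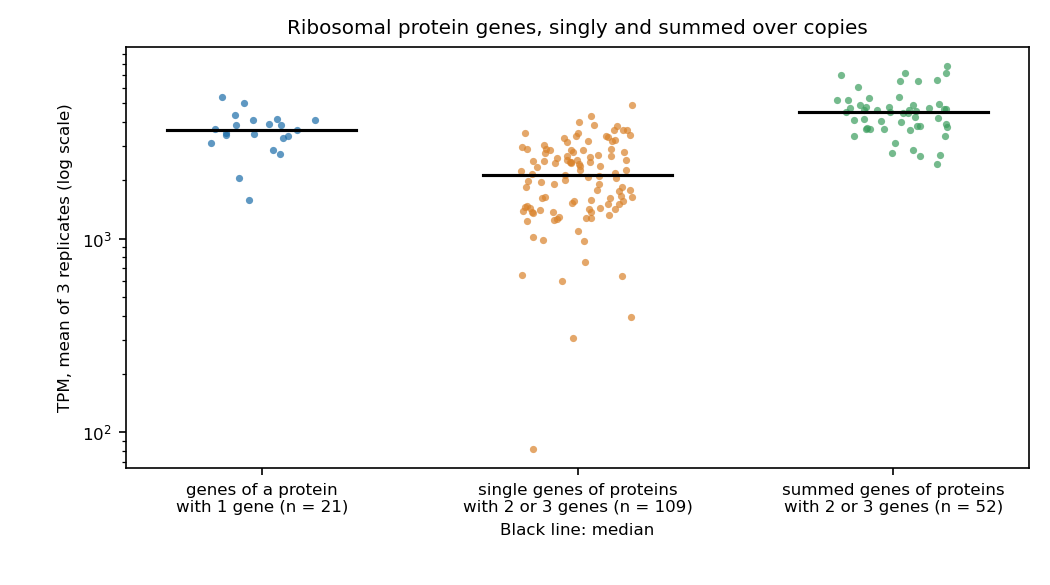
Levels of ribosomal protein genes as TPM (log axis), with 1 point per gene (21 and 109 genes) or per protein (52 sums) and a line at the median. The medians are 3639, 2133 and 4489 TPM, and the summed levels spread less than those of the single copies.

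The promoters of these genes are known for a short element, the HomolD box, that takes the place of a TATA box in fission yeast, often with a HomolE box further upstream. An exact search on both strands was made in the 250 bases before the annotated transcript start of 4511 genes with an annotated 5' UTR, with the letters CAGTCACA for HomolD, CCCTACCCT for HomolE and TATAAA for the TATA box; none of these contains another, and matches of different motifs can share at most 1 base at their ends. HomolD was found before 84 of 134 ribosomal protein genes (62.7%), before 45 of the 4377 other genes (1.03%) and before 2.86% of all genes. HomolE was found before 35.1% of ribosomal protein genes and 0.617% of the others. The box lay close to one place: the median distance from its first base to the start was 50.5 bases for HomolD, with quartiles of 47 and 56, and 69 bases for HomolE. TATAAA showed the opposite pattern, with 25.4% of ribosomal protein genes against 45.2% of the others. The stretches of 120 bases that end at the transcript start of 4 genes with HomolD, from RefSeq build ASM294v3, show the spacing; capitals mark HomolD and HomolE in either orientation.
rpl8 (chrII:2045355-2045474, plus strand): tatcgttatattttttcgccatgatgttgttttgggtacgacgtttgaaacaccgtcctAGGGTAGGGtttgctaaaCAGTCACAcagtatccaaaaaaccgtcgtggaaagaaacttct
rps102 (chrI:898963-899082, minus strand): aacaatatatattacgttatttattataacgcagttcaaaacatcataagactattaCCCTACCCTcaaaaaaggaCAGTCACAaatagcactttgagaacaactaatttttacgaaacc
rps2 (chrIII:2096037-2096156, minus strand): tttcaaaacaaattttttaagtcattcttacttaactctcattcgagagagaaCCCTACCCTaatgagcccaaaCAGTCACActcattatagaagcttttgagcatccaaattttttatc
cpc2 (chrI:2439391-2439510, plus strand): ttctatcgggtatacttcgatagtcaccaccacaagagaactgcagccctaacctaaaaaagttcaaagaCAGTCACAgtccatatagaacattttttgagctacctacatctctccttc

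HomolD began 43 bases before the start in *rpl8*, 44 in *rps102*, 46 in *rps2* and 50 in *cpc2*, and HomolE 61, 63 and 67 bases before it in the first 3. Within the ribosomal protein genes, those with an exact HomolD had a median of 2479 TPM and those without one 2026 TPM. Outside the ribosomal protein lists, the 45 genes with a HomolD had a median of 347 TPM, against 63.5 TPM for those without. These 45 include *ubi5* and *uep1* (1959 ± 133 and 1593 ± 116 TPM), which are annotated as fusions of ubiquitin and a ribosomal protein. Their boxes lay at a median of 73 bases, against 50.5 for ribosomal protein genes. Both strands were searched, so some may be the box of a neighbouring ribosomal protein gene. For example, *uep1* (SPAC1805.12c) has its box at 88 bases on the minus strand, and *rpl14* (SPAC1805.13) at 45 bases on the plus strand. Which gene such a box serves was not tested. Among 98 of the 100 highest genes that were searched, 58 held the box; 9 of these do not encode ribosomal proteins, among them *cpc2*, *tpi1*, *sks2* and *btf3*. A match of letters is a description of the window, and no binding was measured.

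Translation factors were high as well: the 9 elongation genes had a median of 2104 TPM and the 16 initiation genes one of 641 TPM. Of the eIF5A pair, *tif512* was at 4198 ± 137 TPM and *tif51* at 1770 ± 63.3 TPM. The 3 genes for elongation factor 1 alpha, *tef103*, *tef101* and *tef102*, read 2850, 2104 and 886 TPM, and the elongation factor 2 genes *eft202* and *eft201* 477 and 288 TPM. These 5 are near-identical copies with few unique windows, so their levels are lower limits and their order is uncertain. Initiation factors spanned a wide range, from the helicase eIF4A (*tif1*, 3105 ± 145 TPM) and the DEAD-box helicase *sum3* (1515 ± 98.6 TPM) to the scaffold eIF4G (*tif471*, 384 ± 9.73 TPM) and *tif45* (331 ± 5.44 TPM). The 6 subunits of eIF3 lay within 486 and 825 TPM. The 18 aminoacyl-tRNA synthetase genes, which charge tRNAs, had a median of 295 TPM, and 17 of them passed 100 CPM. Ribosome assembly factors were lower than the ribosome itself, with a median of 217 TPM over 29 genes; the highest were *snu13* (1182 ± 23.8 TPM), *gar2* (767, 869 and 671 TPM) and *fib1* (761 ± 53.8 TPM), which act with small nucleolar RNAs or in the nucleolus.

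Glycolysis, the breakdown of glucose to pyruvate, held 3.71%, 3.38% and 3.38% of the counts with 13 genes. Its steps did not stand at 1 level. The genes of the steps before aldolase read 572 ± 26.8 TPM for hexokinase *hxk2*, 282 ± 9.63 TPM for *hxk1*, 1007 ± 53.2 TPM for phosphoglucose isomerase *pgi1* and 689 ± 27.5 TPM for phosphofructokinase *pfk1*. From aldolase onward the main gene of every step was higher: 9199 TPM for *fba1*, 4166 ± 171 for *tpi1*, 3192 ± 330 for *tdh1*, 2946 ± 255 for *pgk1*, 5345 ± 330 for *gpm1*, 3128 ± 190 for *eno101* and 3900 ± 213 for *pyk1*. Pyruvate decarboxylase *pdc101* (3836 ± 235 TPM) and alcohol dehydrogenase *adh1* (4307 ± 295 TPM) continued at the same height. The main genes of the later steps lay above those of the earlier steps in each library.

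Where a step has several genes, 1 gene usually carried it. Enolase *eno101* was 624, 461 and 415 times above *eno102* (6.39 ± 0.952 TPM) in the 3 libraries. *pdc101* was 390 times above *pdc102*, 488 times above *pdc202* and 1198 times above *pdc201* by mean TPM. *tdh1* exceeded the second glyceraldehyde-3-phosphate dehydrogenase gene *gpd3* by 13.9 to 15.2 times, and *adh1* exceeded the mitochondrial *adh4* by 21.9 to 27.8 times. Hexokinase was the exception, with *hxk2* only 1.98 to 2.12 times above *hxk1*. Outside the pathway the same held for the proton pump of the plasma membrane, which acidifies the medium: *pma1* read 5466, 5590 and 5055 CPM and *pma2* 0.393, 0.433 and 0.549 CPM. Among Hsp70 chaperones, *ssa2* was 128 to 162 times above *ssa1*.

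**Figure D3:**
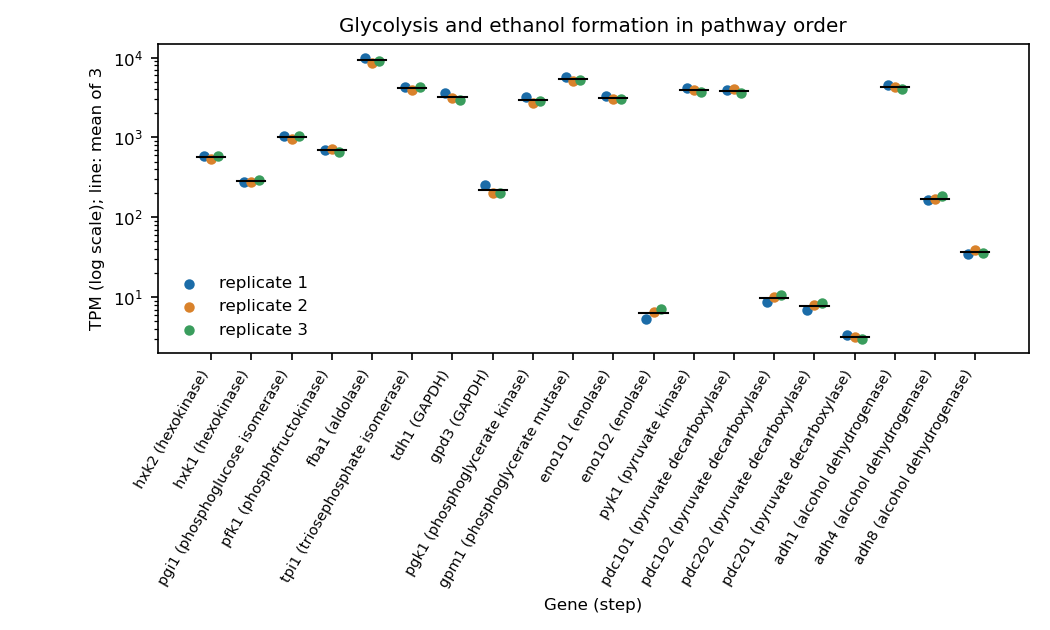
TPM (log axis) of 20 genes of glycolysis and ethanol formation in the order of the pathway, with 3 replicates as points and the mean as a line. The steps before aldolase lie at 282 to 1007 TPM, the main genes from *fba1* on at 2946 to 9199 TPM, and the minor isozymes *eno102*, *pdc102*, *pdc202* and *pdc201* under 10 TPM.

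The promoters of the glycolytic genes differed from those of ribosomal protein genes. HomolD was found before 1 of 13 (*tpi1*), HomolE before none, and TATAAA before 7 (53.8%, against 44.6% of all promoters searched); its median distance to the start was 33 bases, against 116 for all genes with a match. The same 120 bases are shown for *fba1*, *pgk1* and *tpi1*, and for *adh1* of ethanol formation, which is not among the 13. Capitals mark TATAAA and HomolD, and *fba1*, the gene with the highest level, holds neither in these exact letters.
fba1 (chrII:1688201-1688320, plus strand): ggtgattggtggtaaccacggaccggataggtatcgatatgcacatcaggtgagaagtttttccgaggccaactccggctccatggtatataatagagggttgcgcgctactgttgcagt
adh1 (chrIII:1591172-1591291, plus strand): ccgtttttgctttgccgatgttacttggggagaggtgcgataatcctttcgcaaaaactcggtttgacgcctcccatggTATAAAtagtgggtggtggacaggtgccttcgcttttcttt
pgk1 (chrII:4159462-4159581, minus strand): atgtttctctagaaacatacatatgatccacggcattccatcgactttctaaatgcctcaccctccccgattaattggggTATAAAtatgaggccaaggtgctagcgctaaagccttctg
tpi1 (chrIII:939793-939912, plus strand): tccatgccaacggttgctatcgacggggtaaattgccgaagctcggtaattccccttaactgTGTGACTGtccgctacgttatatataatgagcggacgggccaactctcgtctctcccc

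Genes that glucose keeps low were low here. Fructose-1,6-bisphosphatase *fbp1*, the enzyme specific to glucose synthesis, read 24.5, 29.7 and 32.0 TPM, the invertase gene *inv1* 2.20, 1.25 and 1.80 TPM and glycerol dehydrogenase *gld1* 6.03, 5.79 and 5.77 TPM. Of the 13 genes of the glucose-repressed and gluconeogenic list, 11 lay below the median of all protein-coding genes; the 2 above it were the malate permease *mae1* (523 ± 19.6 TPM) and dihydroxyacetone kinase *dak1* (174 ± 8.45 TPM). Among the 8 hexose transporter genes, *ght8* read 1206, 1314 and 1371 CPM and *ght5* 34.9, 38.0 and 42.4 CPM. These 2 share sequence, with 75.5% and 70.7% of their windows unique, so that the division between them is uncertain. *ght2* stood at 111 ± 1.69 TPM, and *ght1*, *ght3*, *ght4*, *ght6* and *ght7* all stood under 10 TPM.

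Respiratory genes were high among all genes but lower than the main genes of the steps from *fba1* to *adh1*. The whole list of pyruvate decarboxylases and alcohol fermentation, 10 genes with the minor isozymes, had a median of only 28.6 TPM. In that list 7 genes lay below the median of all protein-coding genes. The 22 genes of pyruvate dehydrogenase and the tricarboxylic acid cycle had a median of 272 TPM, led by aconitase *aco1* (655 ± 9.40 TPM), and the 33 nuclear genes of the respiratory complexes and ATP synthase had a median of 334 TPM, led by the ATP synthase subunit *atp2* (1502 ± 25.8 TPM). Mitochondrial ribosomal proteins were far below their cytosolic counterparts, at a median of 84.1 TPM over 61 genes, with none in the top decile. The genes of the mitochondrial genome itself could not be judged, because all 36 of their IDs had 0 counts. Whether their reads were lost in poly(A) selection, in mapping or in counting was not tested.

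Subunits of some complexes stood at nearly 1 level and those of others did not. The 8 subunits of the CCT chaperonin, which folds actin and tubulin, lay within 309 and 399 TPM, an SD of 0.12 on the log2 scale, compared with 2.29 over all protein-coding genes with counts. The 28 proteasome subunits made from 1 measurable gene each lay between 137 TPM (*pre8*) and 325 TPM (*rpn2*), with an SD of 0.28. Nuclear cytochrome oxidase subunits spanned 246 to 442 TPM. The vacuolar proton pump was less even, from 43.1 TPM for *vma16* to 481 TPM for *vma3*, as was RNA polymerase II, from 46.0 TPM for *rpb3* to 408 TPM for *rpb10*. The MCM helicase of DNA replication spanned 23.0 TPM (*mcm5*) to 93.6 TPM (*mcm7*). Among the 12 nuclear ATP synthase genes, *atp2* was the highest, and the median of all 12 was 308 TPM.

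**Figure D4:**
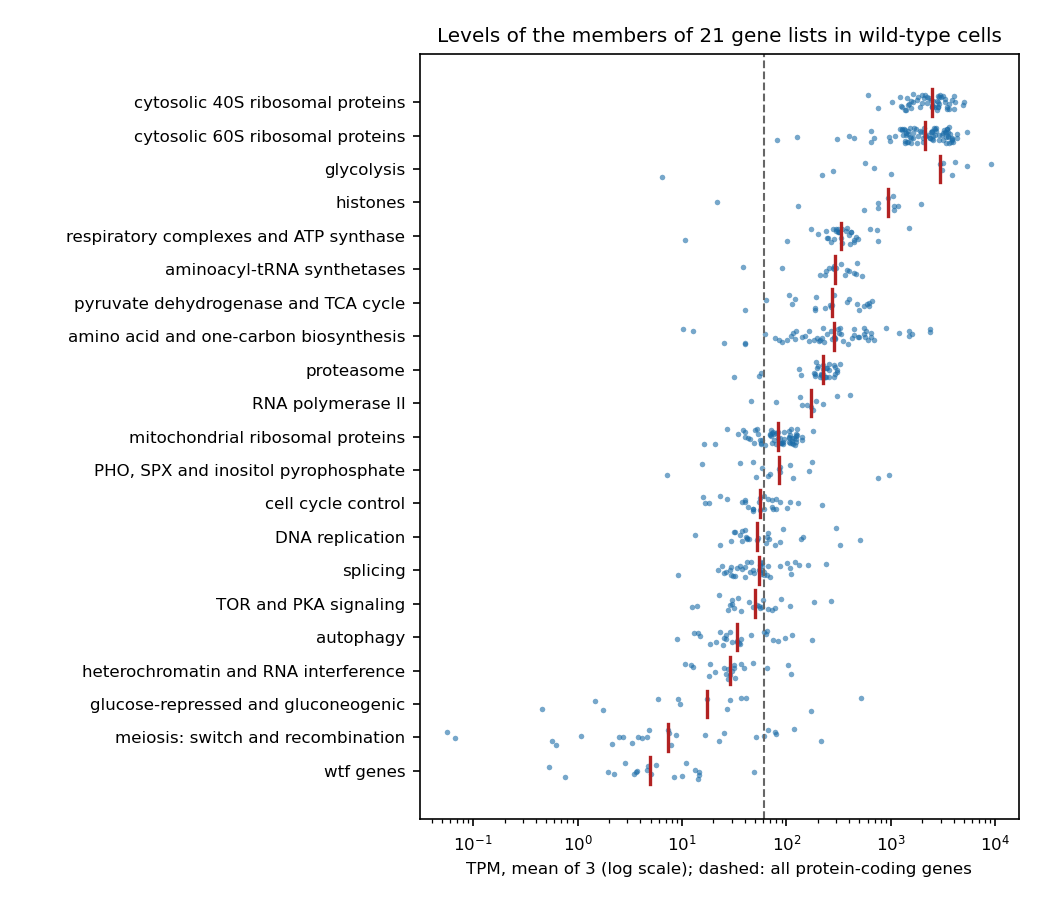
TPM (log axis) of the members of 21 gene lists, with 1 point per gene, a red line at the median of each list and a dashed line at the median of all protein-coding genes, 60.5 TPM. The medians run from 2946 TPM for glycolysis to 4.89 TPM for the *wtf* genes, and members at 0 are counted in the median but not drawn. Of the 25 *wtf* IDs, 17 have fewer than 80% unique windows, so their levels are lower limits.

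Growth also calls for building blocks. The 57 genes of amino acid and one-carbon synthesis held 3.46% ± 0.0399 of the counts, led by *met26* (2386 ± 55.6 TPM), the ketol-acid reductoisomerase gene *ilv5* (2356 ± 81.8 TPM), the adenosylhomocysteinase gene SPBC8D2.18c (1604 ± 70.0 TPM) and *sam1* (1512 ± 71.6 TPM), which makes S-adenosylmethionine. Lipid and sterol genes held 1.39%, with sterol oxidase *erg25* (1181 ± 26.3 TPM) and the fatty acid desaturase *ole1* (883 ± 45.4 TPM) on top. The 2 subunits of fatty acid synthase stood close together at 256 ± 2.11 (*fas2*) and 215 ± 0.939 TPM (*fas1*). Cell wall genes were led by *ecm33* (2484 ± 68.0 TPM) and the glucanosyltransferases *gas1* (2244 ± 41.2 TPM) and *gas2* (1769 ± 109 TPM), well above the glucan synthases themselves, *bgs4* (234 ± 3.07 TPM), *bgs1* (157 ± 6.20 TPM), *bgs3* (147 ± 4.41 TPM) and *ags1* (92.3 ± 0.905 TPM).

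Regulators of division were near the middle of the genome. The 28 genes of cell cycle control had a median of 55.6 TPM, close to the 60.5 TPM of all genes, and the 27 replication genes 52.9 TPM. The mitotic cyclin *cdc13* was the highest of the regulators at 221 ± 11.6 TPM, its kinase *cdc2* read 108 ± 0.870 TPM, and the inhibitory kinase *wee1* and the activating phosphatase *cdc25* read 54.7 ± 1.44 and 79.2 ± 4.40 TPM. Highest among the replication genes were ribonucleotide reductase, with *cdc22* at 504 ± 17.6 and *suc22* at 302 ± 23.9 TPM, and the sliding clamp *pcn1* at 324 ± 15.4 TPM. No synchronisation of the cultures is described, so a level is an average over the cycle, and fewer cells expressing a gene and less RNA per cell cannot be told apart. Histone genes read high for genes whose transcripts are known to peak in S phase: *htb1*, the only H2B gene, read 1951 ± 141 TPM, the 3 H3 genes 1179, 1081 and 1074 TPM, and the centromeric variant *cnp1* 21.7 ± 0.690 TPM.

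The phosphate regulon, a readout in the study, was led by 2 genes. The phosphate transporter *pho84* read 1486, 1574 and 1416 CPM and the acid phosphatase *pho1* 910, 811 and 839 CPM, whereas *tgp1*, a transporter of glycerophosphodiesters, read 10.4, 10.9 and 11.9 CPM. *pho84* was 119 to 144 times above *tgp1* by TPM. Among genes for proteins with an SPX domain, a module that binds inositol pyrophosphates, *vtc2* and *vtc4* of the polyphosphate synthase stood at 175 ± 3.82 and 109 ± 4.43 TPM, *pqr1* (SPAC6B12.07c, named *spx1* in the study) at 164 ± 4.48 TPM, *plt1* at 86.5 ± 1.24 TPM, *gde1* at 48.3 ± 0.727 TPM and *spx2* at 15.7 ± 0.232 TPM. The enzymes that make and remove inositol pyrophosphates were all within 35.8 and 116 TPM: the kinase-phosphatase *asp1* read 35.8 ± 1.42, the kinase *kcs1* 86.8 ± 2.89, the phosphatase *siw14* 66.8 ± 4.14 and the phosphatase *aps1* 116 ± 3.44 TPM. The 19 genes of 3' processing and termination had a median of 73.8 TPM, from the phosphatase *dis2* (401 ± 10.2 TPM) to *ppn1* (21.1 ± 2.22 TPM).

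Genes of meiosis were mostly low but not silent, and those of nitrogen starvation and uptake stood near the median of the genome, at 56.7 TPM over 15 genes, 8 of them below it. Of 27 genes of the meiotic switch and recombination, 21 lay below the median of all protein-coding genes and the list median was 7.41 TPM. The inducer *mei3* read 0.563, 0.555 and 0.594 TPM, the transcription factor *mei4* 4.44, 3.77 and 4.26 TPM and the cohesin *rec8* 4.07, 3.46 and 3.94 TPM. In the same list *ste11*, the transcription factor that starts sexual differentiation, read 118, 115 and 119 TPM, above the median of the genome, and *mde6* read 213 ± 19.9 TPM. Of the 95 genes named *mug*, for upregulation in meiosis, 81 lay below it. Genes for mating with the other type were also low. In a plus strain, *map2* (the P-factor pheromone) read 9.89 ± 0.245 TPM, *map3* (the receptor for M-factor) 26.2 ± 2.89 TPM and *map1* 23.5 ± 4.17 TPM. The minus-type genes *mam2*, *mam3*, *mam1* and *mfm1* read 37.2 ± 3.42, 29.2 ± 3.05, 17.3 ± 1.35 and 0.931 ± 0.599 TPM. The levels of these plus and minus genes overlapped in growing cells. Not every member of the marker lists is named here. The 5 plus markers had a median of 23.5 TPM. The 11 minus markers had a median of 4.78 TPM, but 4 of them are the cassette IDs without a unique window and without counts. The plus cassette names matched no ID and are not among the plus markers, so these medians cannot be set against each other. The aspartic protease gene *sxa1*, listed with the plus markers, read 838, 819 and 899 TPM.

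Some genes of the stress response differed between cultures. The heat shock protein gene *hsp9* read 236, 211 and 353 CPM, and *hsp16* 93.4, 44.1 and 84.3 TPM. Catalase *ctt1* was steadier at 51.2 ± 7.74 TPM. By level, *gpd1*, another marker of stationary phase and stress (605 ± 25.8 TPM), and *hsp9* (507 ± 146 TPM) were high. They ranked 304 and 345 among 5110 protein-coding genes, whereas *hsp16* and *ctt1* ranked 2166 and 2881. The uracil-regulated genes *urg1* and *urg2*, 2 of 3 *urg* genes side by side on chromosome I, were both highest in replicate 3: *urg1* read 648, 645 and 932 CPM and *urg2* 514, 519 and 731 CPM. *cmt2*, for an O-methyltransferase, read 367, 555 and 583 CPM. Divided by the SD that counting alone gives, the largest spread over replicates was that of SPCC1235.01, a protein specific to the genus (1649, 1302 and 1788 CPM, a ratio of 23.3), followed by *tdh1* (22.4), *urg1* (22.3), *rpl1902* (22.2), *fba1* (20.9), *rpl13* (20.9), *cmt2* (19.3) and *urg2* (18.8). The spread was small for most genes: the median coefficient of variation was 11.9% at 1 to 10 CPM, 4.91% at 10 to 100 CPM, 3.50% at 100 to 1000 CPM and 3.82% above. The median ratio of the SD to that of counting was 0.957, 1.23, 1.83 and 5.54 at these levels, so that a ranking by it favours abundant genes.

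Non-coding RNA was dominated by 1 transcript. *prl53* (SPNCRNA.53, chrI:4008054-4009905, minus strand, 1852 bases), annotated as a poly(A)-bearing RNA, read 5175, 5658 and 5642 CPM, more than all but 5 of the protein-coding genes. It made up 35.4%, 37.3% and 36.4% of all non-coding counts. The protein-coding ID SPAC27E2.11c overlaps its 5' end on the same strand and read 0.387 CPM. The next non-coding RNAs were *rse1* (340 ± 17.6 CPM) and the antisense RNAs SPBC215.07c-antisense-1 (258 ± 11.7 CPM), SPNCRNA.1626 (142 ± 3.82 CPM), cbp6-antisense-1 (135 ± 13.4 CPM) and SPBC28E12.02-antisense-1 (129 ± 2.87 CPM). Of these, cbp6-antisense-1 is also annotated as a possible alternative UTR. Of 1514 non-coding IDs, 886 reached 1 CPM, 245 reached 10 CPM and 6 reached 100 CPM. Antisense RNAs were the largest class, with 694 IDs and 0.642% ± 0.0163 of the counts, and 429 intergenic RNAs took 0.282% ± 0.00709. No counts were found for 18 of 22 centromeric RNAs, against 223 of all 1514 non-coding IDs. How unique the centromeric sequences are is not given here, so these zeros do not show that the RNAs were absent.

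A gene opposite each antisense RNA was found by coordinates for 674 of them. The median ratio of antisense to sense, both as CPM per kilobase, was 0.0784. The antisense was higher than the gene in 89 of the 524 pairs with an antisense at 1 CPM or more. A low sense level is part of what selects these pairs. *spo4*, a kinase of meiosis, had 1, 0 and 2 counts, and spo4-antisense-1 had 1381, 1026 and 1144. *dmc1*, the recombinase of meiosis, read 0.834 CPM and its antisense 49.2 CPM. *nmt1*, a thiamine synthesis gene that thiamine represses, had 10, 4 and 4 counts, and *prl10* opposite to it read 25.8 CPM. *ght6* read 0.668 CPM and its antisense 81.7 CPM. Of the 8 *meu* genes (for meiotic expression upregulated) with an antisense ID, 6 were lower than it, of the 18 such *mug* genes 6, and of the 6 of the meiotic switch and recombination list 2 (*spo4* and *dmc1*). Which strand setting was used for counting is not stated. Of the 5110 protein-coding genes, 593 genes with at least 90% of their span opposite another ID still had a median of 44.4 TPM, whereas of 15 genes that share at least 50% of their span with an ID of the same strand 10 had no counts.

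**Figure D5:**
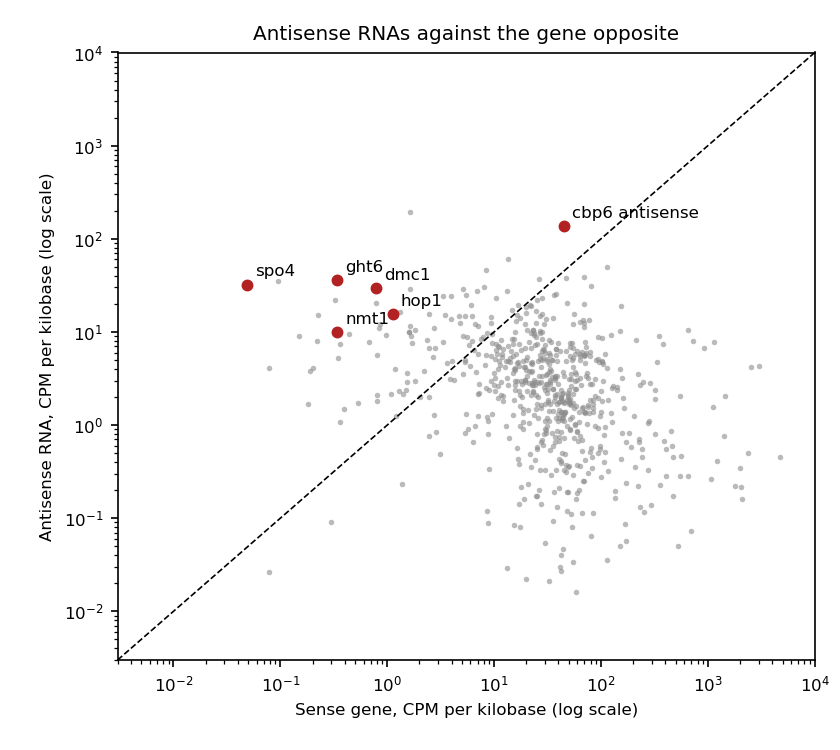
CPM per kilobase (log axes) of 662 antisense RNAs against the protein-coding gene on the other strand, with a dashed line at equality. Most points lie below the line, and *spo4*, *ght6*, *dmc1*, *hop1* and *nmt1*, all under 1.2 CPM per kilobase on the sense strand, lie above it. The marked antisense RNA of *cbp6*, also annotated as a possible alternative UTR, lies above the line as well.

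The coding sequences of highly expressed genes differed from the rest in their choice of codons. Over 4848 genes with a unique, intact coding sequence, the 100 with the highest TPM used CGT for 73.3% of arginines, against 31.0% in all genes and 23.4% in the 1000 lowest. AAG made up 88.2% of lysine codons in the 100 highest and 37.5% in all, AAC 79.0% and 33.7% of asparagine codons, and TTC 69.1% and 27.9% of phenylalanine codons. The arginine codons CGG and CGA fell to 0.123% and 0.556%, from 6.21% and 16.7% in all genes. Without ribosomal proteins the 100 highest genes were of the same kind, with 74.9% CGT and 76.3% AAG. Of the 100 highest, 81 end in TAA, 19 in TAG and none in TGA, which ends 19.7% of all. The base 3 before the start codon was A in 85.6% of the 100 highest and 61.4% of all genes. TPM was also related to length: the median coding length was 1143 bases in the lowest decile of level, 1410 in the third and 828 in the highest. The rank correlation of coding length with TPM across 4849 genes was -0.15, and -0.099 without ribosomal proteins. Because TPM is itself divided by exon length, a negative relation is partly built into this measure. Intron number went with little difference in level, with medians of 61.2 TPM for 2578 genes without introns, 67.7 for those with 1 and 45.2 for those with 5 or more. These are comparisons across genes, which are not independent replicates.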

How the data were processed

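RNA of 3 wild-type cultures was extracted with hot acid phenol, selected for poly(A), made into libraries with a stranded kit and sequenced in pairs of 51 bases. The authors mapped reads to build ASM294v2 with HISAT2 2.1.0 and counted them over annotated exons with HTSeq 0.10.0; its strand option was not stated. The deposited table holds these counts as whole numbers before scaling. Gene types and products were read from the deposited table of the authors' DESeq2 comparison, whose means, fold changes and p-values of deletion against wild type were not used.

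Of 6987 rows, 1 empty duplicate ID was dropped. CPM used the total of all IDs. TPM used exon lengths of RefSeq build ASM294v3, which matched 6833 IDs by locus tag and 5110 of the 5126 protein-coding IDs; coding length was the alternative. Uniqueness is the share of 51-base exon windows that occur once in that genome. The software was Python 3.11.15, numpy, pandas and scipy, R 4.3.3 and edgeR 4.0.16; scaling by edgeR's TMM and DESeq2 1.42.0 were alternatives. No groups were compared and no test was run; the scripts were tested on simulated data. Depth gives a floor of 3 counts, or 0.196 to 0.260 CPM, for counting error only.

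The gene lists were chosen with earlier results of these data known, edited by name and product and not by level, and 26 names matched no ID. Named genes are the 20 highest by CPM and by TPM, the highest non-coding RNAs, the ends of each list, the members of short lists and the 8 with the largest spread; isozymes, complexes, antisense pairs and the other genes named were chosen after their values were seen.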

Additional observations from a re-analysis of the deposited data

How the results depend on the processing

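Counting TPM in place of CPM moved the number of genes holding 50% of the total from 392 to 209, the share of large-subunit ribosomal proteins to 18.8% and that of the small subunit to 13.7%. With coding length the medians were 2237 TPM for the small subunit and 2370 TPM for glycolysis. It also moved the medians of 38 of 41 other lists by more than 1 SD. Raising the threshold to 5 CPM left 444 non-coding IDs in place of 886. On log2(CPM + 1) the lowest Pearson coefficient was 0.9983. Without 1 replicate at a time the median of the small subunit ran from 2420 to 2519 TPM and the coefficient of variation of edgeR from 0.0393 to 0.0534. TMM and DESeq2 scaling left each of the 30 named genes tried within 1 SD of the reported CPM. No paired analysis was possible because 1 group was described. Depth limits statements on genes under about 1 CPM, and copies with few unique windows are understated.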

Other observations

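Repeated families were near the lower limit of what these counts can show. The 13 Tf2 retrotransposons took 0.000537% of the counts, 5 of them had no counts, and all 13 have fewer than 80% unique windows, so that the values are lower limits. The 25 *wtf* genes, selfish elements that kill spores which lack them, held 0.0238% of the counts, and the highest was *wtf14* at 48.8 ± 2.03 TPM. Of these 25, 17 have fewer than 80% unique windows, so that their levels are lower limits as well. Genes near the ends of chromosomes I and II were low as a group: the 64 measurable genes within 100 kb of an end had a median of 8.21 TPM against 64.3 TPM for the 4029 genes further in. Of the 64, 12 lay above the median of all protein-coding genes, led by SPAC922.04 (1110 ± 116 TPM), the nitric oxide dioxygenase gene *yhb1* (1009 ± 86.3 TPM) and the neighbours *pho84* and *pho1*.

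Of the genes annotated only as specific to *S. pombe*, 62 of 96 reached 1 CPM and the median was 9.74 TPM; for those specific to the genus, 140 of 150 did and the median was 37.9 TPM. Of 53 protein-coding IDs annotated as dubious, 28 reached 1 CPM, and 9 had no counts. Among pseudogenes, SPBPB21E7.08 alone passed 100 CPM, at 342 ± 49.9 CPM.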
